A study of Mus musculus with 16 samples.

Results

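The difference between 2 activation responses was measured, that of CD4 T cells that express Foxp3 (TFoxp3+ cells) and that of CD4 T cells that do not (TFoxp3- cells), in cytosolic mRNA. A response is the activated mean minus the ex vivo mean of a gene on the log2 scale, and the difference is the TFoxp3+ response minus the TFoxp3- response, so that a positive value means a higher response in TFoxp3+ cells. All 16475 genes on the arrays were tested, and the 8 cytosolic arrays among the 16 of the series were used. The mice were C57BL/6 females aged 6 to 12 weeks with GFP knocked in at Foxp3, lymph nodes and spleens were the source of the cells, and all 4 groups carried this reporter. Cells were sorted on CD4 and GFP to a stated purity above 97%. TFoxp3+ cells ex vivo (arrays 1 and 5) and TFoxp3- cells ex vivo (arrays 3 and 7) were isolated in cycloheximide at 100 µg/ml, a drug that stalls elongating ribosomes, and each of these arrays held RNA pooled from 2 experiments. Activated TFoxp3+ cells (arrays 13 and 15) and activated TFoxp3- cells (arrays 9 and 11) had been cultured for 36 h on plate-bound anti-CD3 with anti-CD28, each group with human IL-2 at 100 U/ml. The same dose of cycloheximide was given to the activated cells when their culture ended. The methods call the 2 arrays of a group biological duplicates. The p-values rest on 1 spread per gene, pooled over the duplicates of all 4 groups.

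A T cell that meets its antigen with costimulation leaves quiescence: it takes down the genes that keep it resting and recirculating, induces cytokines and growth factor receptors, and enters the cell cycle. Foxp3 is the transcription factor that defines most regulatory T cells, which hold other T cells in check and which divide poorly and make little IL-2 when stimulated in culture. A cell that carries Foxp3 already has, before stimulation, a number of receptors that other CD4 T cells acquire with activation.

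The array names fell into 3 sets, 1 of all ex vivo samples, 1 of activated TFoxp3- cells and 1 of activated TFoxp3+ cells. Array set and activation, and after activation array set and subset, therefore cannot be told apart, and this holds for every difference below. The signal of the actin control probes at the 3′ end was above that at the 5′ end by 4.64 and 4.16 ex vivo in TFoxp3+ cells and by 0.848 and 1.38 ex vivo in TFoxp3- cells (log2), against -0.588 to -0.202 on the 4 activated arrays. These values moved with the groups, and their part in the differences was not tested. Array medians lay between 4.845 and 5.065. The interquartile range of the values was 2.62 and 2.67 on the activated TFoxp3+ arrays and 3.34 and 3.03 on the activated TFoxp3- arrays. Ex vivo it was 3.03 and 3.13 in TFoxp3+ and 3.54 and 3.39 in TFoxp3- cells. Values were thus least spread out in activated TFoxp3+ cells, and the part of this in the differences was not tested. The correlation between the 2 arrays of a group across genes was 0.986 and 0.992 ex vivo for TFoxp3+ and TFoxp3- cells, 0.941 for activated TFoxp3- cells and 0.888 for activated TFoxp3+ cells. Activated replicates were further apart, with 946 genes over 3-fold apart in TFoxp3- and 1489 in TFoxp3+ cells, against 18 and 41 ex vivo. The main test nevertheless took 1 spread per gene for all 4 groups.

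Where both responses were called, they were largely of the same sign. In TFoxp3+ cells 2385 genes rose (14.5% of those tested) and 2305 fell (14%) at an adjusted p under 0.05 with limma, and in TFoxp3- cells 1937 rose (11.8%) and 1997 fell (12.1%). Of 2444 genes called in both subsets, 2376 (97.2%) had the same sign, 1117 of them rising and 1259 falling, and 68 had opposite signs. A response was called only in TFoxp3+ cells for 2246 genes and only in TFoxp3- cells for 1490. The correlation between the responses of the subsets across all genes was 0.695. The median of the difference was 0.03 over all genes and -0.125 over the genes with a mean level above the median. The difference itself was called for 247 genes, 1.50% of those tested. In 99 of these (0.601%) the response was higher in TFoxp3+ cells, and in 148 (0.898%) it was lower. With cyclic loess between arrays the split was 97 higher and 86 lower, 53% higher against 40.1%. Each group holds 2 arrays, and the count rested on them unevenly. No gene was called by limma without array 1, 3, 5 or 7 (1762, 1649, 1851 and 1709 genes at an unadjusted p under 0.05, against 2629 with all arrays). Without array 9 or 11 the count was 232 and 220, and without array 13 or 15 it was 1177 and 1097.

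**Figure D1:**
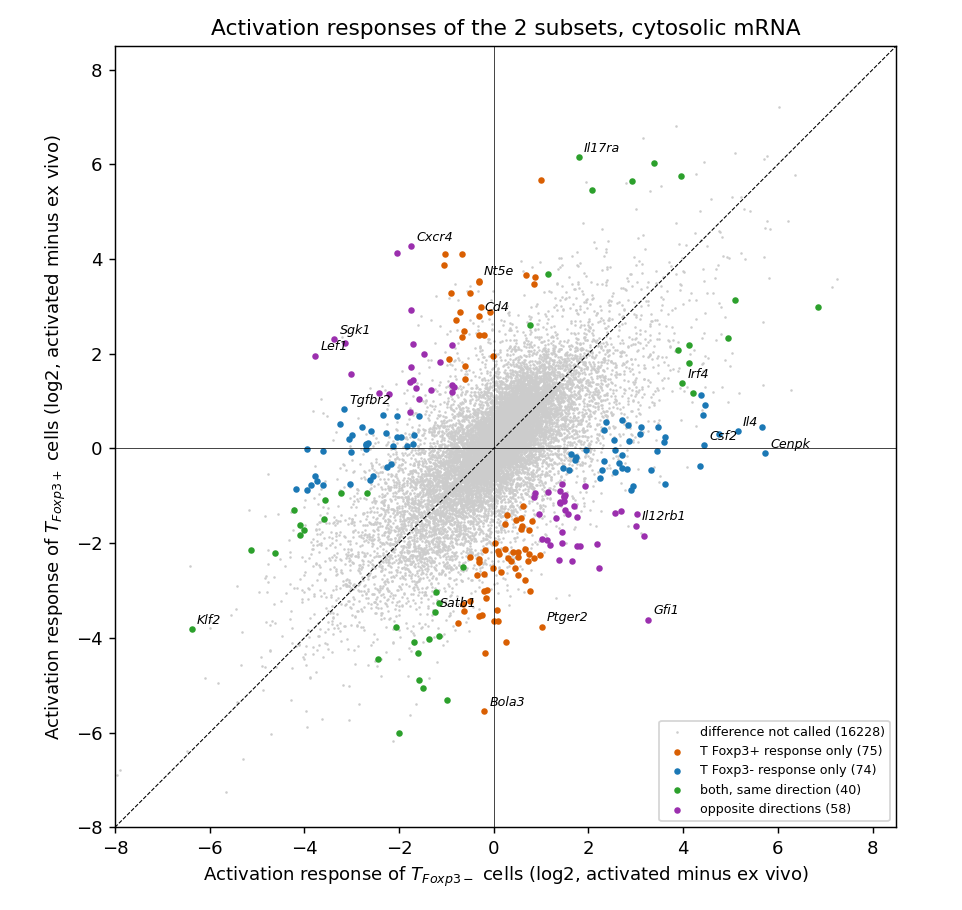
Activation response (activated minus ex vivo, log2) of TFoxp3- cells on the x axis and of TFoxp3+ cells on the y axis for 16475 genes, with the 247 called genes coloured by how they were sorted and the dashed line marking equal responses. Most genes lie along the line, the 58 genes with opposite directions lie in the upper left and lower right, and the genes called in 1 subset only lie near an axis.

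The 247 genes were sorted by which of their own responses were called. A response in TFoxp3+ cells alone was called for 75 genes, of which 24 rose and 51 fell, and a response in TFoxp3- cells alone for 74, of which 40 rose and 34 fell. Both responses were called with the same sign for 40 genes and with opposite signs for 58, and no gene had neither. A response that was not called is not shown to be 0. The 95% interval of the other response lay within 1 log2 unit of 0 for 28 of the 75 and for 35 of the 74. In 185 of the 247 the subsets were further apart after activation than ex vivo, and in 62 they were closer. A difference between the subsets was called ex vivo for 51 and after activation for 198. These genes were chosen for the difference between the responses, so a gap in at least 1 state follows from the choice. The counts were not set beside those over all genes, and activated replicates were further apart. In 100 of the 247 genes the lowest group mean lay under the lowest array median, and for those a fold may be understated.

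Most genes of resting and recirculating T cells lost mRNA in activated TFoxp3- cells, and some of them gained it in activated TFoxp3+ cells. Of 27 measured genes of the naive and quiescence list, 6 had a called higher response in TFoxp3+ cells and 1 a lower one, against 0.601% and 0.898% of all genes. The median of the list's differences was 1.86, against 0.03 for all genes. In TFoxp3- cells 19 of the 27 fell (12.1% of all genes), and in TFoxp3+ cells 7 fell and 7 rose (14% and 14.5%). Cxcr4, the receptor for the chemokine CXCL12, read 7.37 and 7.63 ex vivo and 11.48 and 12.05 after activation in TFoxp3+ cells, and 8.07 and 8.13 ex vivo and 6.0 and 6.70 after activation in TFoxp3- cells. The activated TFoxp3+ arrays were the highest and the activated TFoxp3- arrays the lowest, and no groups overlapped. The difference was 6.02 ± 0.45 (SE, adjusted p = 0.0112), the ± being the standard error as for all differences here. Lef1, a transcription factor of naive T cells and a partner of beta-catenin, read 6.02 and 6.83 ex vivo and 8.63 and 8.13 after activation in TFoxp3+ cells, and 9.81 and 10.01 ex vivo and 6.62 and 5.63 after activation in TFoxp3- cells. The subset with more Lef1 changed with activation: TFoxp3- cells had more ex vivo and TFoxp3+ cells more after it. The difference was 5.74 ± 0.60 (SE, adjusted p = 0.0211).

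Other called members of this list were Tgfbr2 and Il6st, both described with their own groups, Dapl1 (difference 2.15, adjusted p = 0.0413) and Klf2, a transcription factor that holds T cells quiescent and drives their homing receptors. Klf2 read 11.65 and 11.71 ex vivo and 8.07 and 7.66 after activation in TFoxp3+ cells, and 12.51 and 12.36 ex vivo and 6.21 and 5.90 after activation in TFoxp3- cells. It fell in both subsets, further in TFoxp3- cells, so that the activated groups did not overlap although both were below all ex vivo arrays. The difference was 2.57 ± 0.34 (SE, adjusted p = 0.03). S1pr1, the receptor for egress from lymph nodes, responded by 2.34 in TFoxp3+ and -3.20 in TFoxp3- cells, and Il7r, the IL-7 receptor chain, by -0.56 and -3.79. Neither difference passed the threshold (adjusted p = 0.0517 and 0.052). The 1 called member with a lower response in TFoxp3+ cells was Satb1, a chromatin organizer that is repressed in regulatory T cells. Satb1 read 7.51 and 7.81 ex vivo and 4.21 and 4.19 after activation in TFoxp3+ cells, and 9.78 and 9.30 ex vivo and 8.45 and 8.13 after activation in TFoxp3- cells. All 4 groups were apart, activated TFoxp3+ cells were lowest, and the difference was -2.21 ± 0.36 (SE, adjusted p = 0.0465).

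Of the 58 genes with opposite directions 23 rose in TFoxp3+ cells and fell in TFoxp3- cells. Sgk1, a kinase downstream of PI3K that phosphorylates FOXO factors, was among them and read 7.97 and 7.39 ex vivo and 10.37 and 9.62 after activation in TFoxp3+ cells, and 9.09 and 8.89 ex vivo and 6.19 and 5.05 after activation in TFoxp3- cells. Activated TFoxp3- cells had the lowest and activated TFoxp3+ cells the highest values, and the difference was 5.68 ± 0.63 (SE, adjusted p = 0.0229). Ino80c, a subunit of the INO80 chromatin remodeler, had the largest positive difference of the named genes, with 4.0 and 4.13 ex vivo and 8.08 and 8.31 after activation in TFoxp3+ cells, and 5.71 and 4.83 ex vivo and 3.37 and 3.08 after activation in TFoxp3- cells. The activated TFoxp3+ arrays stood above all others, and the difference was 6.17 ± 0.46 (SE, adjusted p = 0.0112). Prkacb, which encodes a catalytic chain of cAMP-dependent protein kinase, responded by 2.21 in TFoxp3+ and -1.71 in TFoxp3- cells, a difference of 3.92 ± 0.60 (SE, adjusted p = 0.0413). Among 24 measured genes of chemokine receptors, adhesion and homing, 2 had a called higher response in TFoxp3+ cells (Cxcr4 and Itgb7), against 0.601% of all genes.

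The other 35 genes with opposite directions fell in TFoxp3+ cells and rose in TFoxp3- cells. Gfi1, a transcriptional repressor of T cell differentiation, had the largest difference of either sign among the called genes. It read 8.72 and 8.62 ex vivo and 5.43 and 4.69 after activation in TFoxp3+ cells, and 7.57 and 7.95 ex vivo and 10.95 and 11.07 after activation in TFoxp3- cells. The ex vivo groups were 0.91 apart, the activated groups lay far on either side of them, and the difference was -6.86 ± 0.42 (SE, adjusted p = 0.00914). Il12rb1, the receptor chain shared by IL-12 and IL-23, read 9.71 and 9.32 ex vivo and 8.24 and 7.52 after activation in TFoxp3+ cells, and 7.43 and 7.21 ex vivo and 10.02 and 10.64 after activation in TFoxp3- cells. Ex vivo TFoxp3+ cells had more of it and activated TFoxp3+ cells less than the matching TFoxp3- cells, so that the order of the subsets turned. Its difference was -4.64 ± 0.48 (SE, adjusted p = 0.0211). Phlda1, which is induced by T cell receptor signals, differed by -4.74 ± 0.78 (SE, adjusted p = 0.0465), and Atg9b, an autophagy protein, by -5.03 ± 0.63 (SE, adjusted p = 0.0274). Ncaph, a condensin subunit, and Sesn2, a stress-induced regulator of mTORC1, were of the same kind with -2.73 and -1.87 (adjusted p = 0.0229 and 0.0441).

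**Figure D2:**
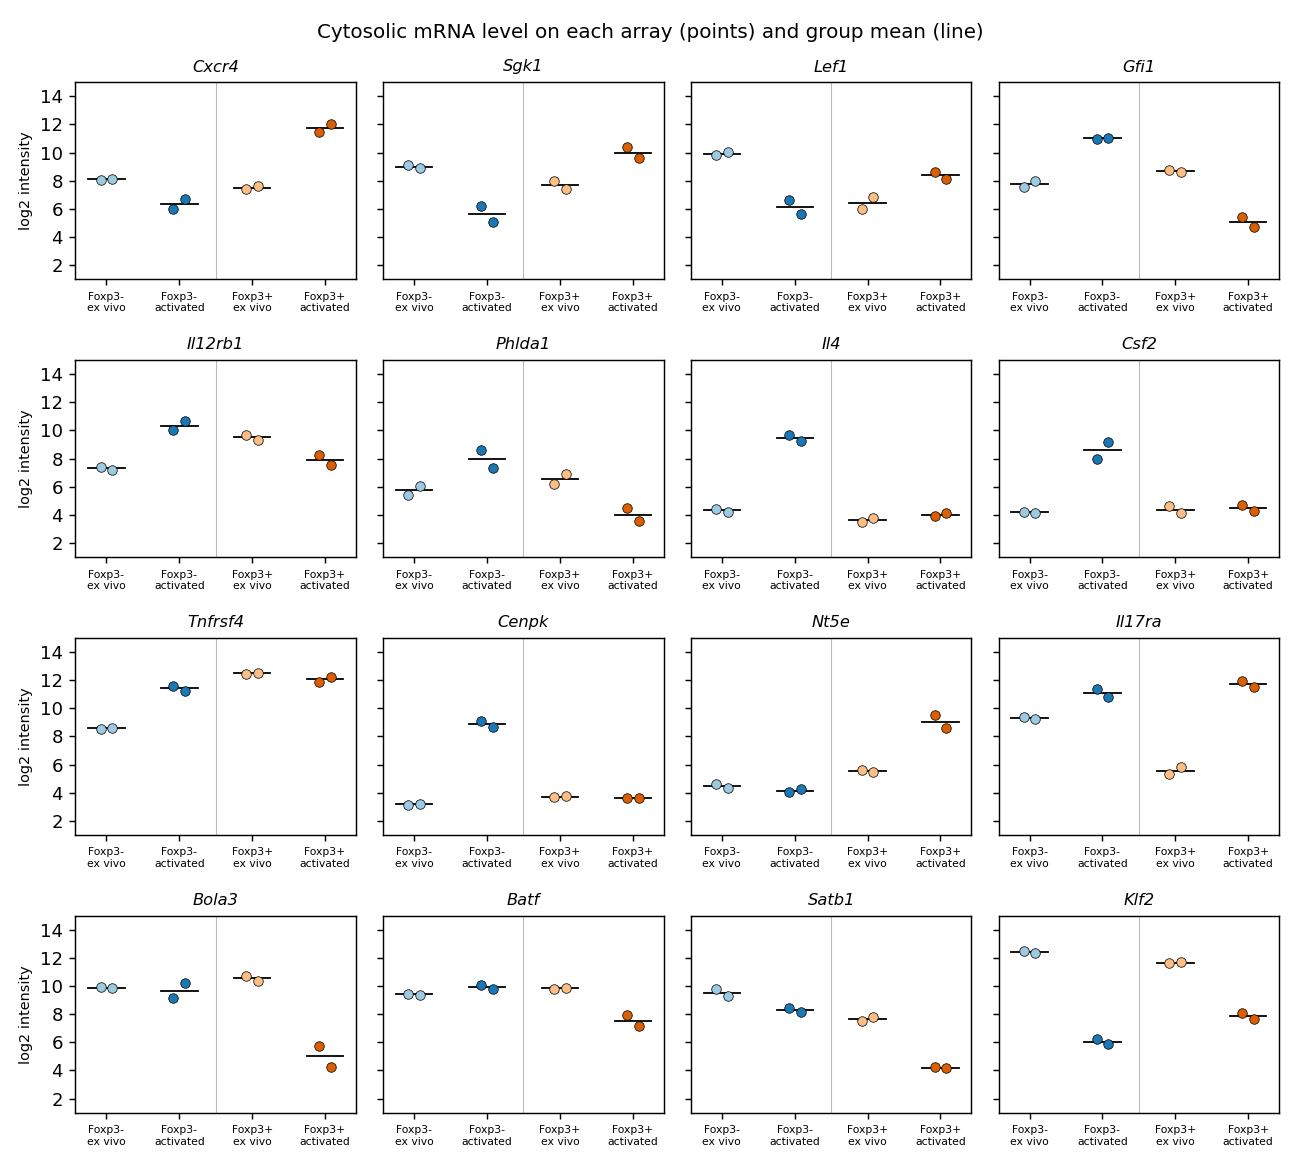
Cytosolic mRNA level (log2 intensity, y axis) of 16 named genes on each of the 8 arrays, by subset and state on the x axis. Points are single arrays and lines are means of 2 arrays. Cxcr4, Sgk1 and Lef1 move up in TFoxp3+ and down in TFoxp3- cells, Gfi1, Il12rb1 and Phlda1 move the other way, and Il4, Csf2 and Cenpk rise in TFoxp3- cells.

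Genes that rose in TFoxp3- cells alone included cytokines. Of 30 measured effector cytokine genes, 17 rose in TFoxp3- and 7 in TFoxp3+ cells, against 11.8% and 14.5% of all genes. The difference was called lower in TFoxp3+ cells for 4 (0.898% of all genes) and higher for 1, and its median was -1.29 against 0.03. Il4, the cytokine of type 2 helper cells, read 3.51 and 3.77 ex vivo and 3.92 and 4.09 after activation in TFoxp3+ cells, and 4.40 and 4.22 ex vivo and 9.69 and 9.23 after activation in TFoxp3- cells. Only the activated TFoxp3- arrays were above the array medians, and the difference was -4.78 ± 0.35 (SE, adjusted p = 0.0112). Csf2, which encodes GM-CSF, read 4.63 and 4.12 ex vivo and 4.66 and 4.23 after activation in TFoxp3+ cells, and 4.20 and 4.12 ex vivo and 8.0 and 9.21 after activation in TFoxp3- cells. Again the activated TFoxp3- arrays stood apart and the other 3 groups overlapped, with a difference of -4.37 ± 0.60 (SE, adjusted p = 0.0337). The chemokine genes Xcl1 and Ccl4 differed by -3.12 and -2.31 (adjusted p = 0.0409 and 0.0422), and Ccl4 rose in both subsets. The exception was Prf1, the pore-forming protein of cytotoxic cells, whose difference was 3.19 (adjusted p = 0.0442). Il2 read 3.84 and 3.76 ex vivo and 8.74 and 5.70 after activation in TFoxp3+ cells, and 3.64 and 3.66 ex vivo and 10.20 and 11.39 after activation in TFoxp3- cells. The difference of -3.73 did not pass the threshold (adjusted p = 0.22), and the 2 activated TFoxp3+ arrays were far apart (SD 2.15).

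Most mitosis genes rose in TFoxp3- cells, and fewer of them passed the test in TFoxp3+ cells. Of 55 measured mitosis genes 39 rose in TFoxp3- cells and 19 in TFoxp3+ cells, against 11.8% and 14.5% of all genes. The difference was below 0 for 43, with a median of -1.39, and it was called for 4, all lower in TFoxp3+ cells (0.898% of all genes). Of 45 DNA replication genes 25 rose in TFoxp3- and 13 in TFoxp3+ cells (11.8% and 14.5% of all genes). The median difference was -1.06, and the 1 call was Rfc4, a subunit of the clamp loader of DNA polymerase (-4.72 ± 0.51, adjusted p = 0.0219). Called for mitosis were Bub1b of the spindle checkpoint (-3.38 ± 0.57, adjusted p = 0.0473), Cdca5, the cohesin protector sororin (-2.85 ± 0.42, adjusted p = 0.0396), Spc25 of the kinetochore (-2.66 ± 0.40, adjusted p = 0.0401), and Ncaph. Bub1b read 6.89 and 6.15 ex vivo and 6.49 and 7.03 after activation in TFoxp3+ cells, and 4.48 and 4.32 ex vivo and 7.56 and 8.47 after activation in TFoxp3- cells. TFoxp3+ arrays read higher than TFoxp3- arrays before activation, and the response of TFoxp3+ cells was 0.24. The kinetochore gene Cenpk, outside the lists, had the largest difference of the genes called in TFoxp3- cells alone. It read 3.67 and 3.77 ex vivo and 3.62 and 3.61 after activation in TFoxp3+ cells, and 3.12 and 3.22 ex vivo and 9.13 and 8.66 after activation in TFoxp3- cells. Only the activated TFoxp3- arrays were raised, and the difference was -5.82 ± 0.32 (SE, adjusted p = 0.00914). Sgo1, which guards cohesin at centromeres, differed by -5.21 ± 0.42 (SE, adjusted p = 0.0135). The atypical E2F repressor E2f8 differed by -2.10 (adjusted p = 0.0401). Mki67, a marker of cycling cells, responded by -1.05 in TFoxp3+ and 1.67 in TFoxp3- cells, and its difference was not called (adjusted p = 0.0624). The ex vivo difference between TFoxp3+ and TFoxp3- cells was 2.12 for Bub1b and 1.56 for Cdca5, and neither was called.

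Promoters of mitosis genes are known for a CHR element (TTTGAA) near the start site and CCAAT boxes upstream of it, through which cell cycle repressor and activator complexes act. The promoters of the called members Bub1b, Spc25 and Cdca5 are shown because these genes rose in TFoxp3- cells alone. They are RefSeq windows of GRCm38.p6 of 300 bases around the start, 5′ to 3′ on the strand of the gene (Bub1b, plus strand, chr2:118597961-118598260, Spc25, minus strand, chr2:69206164-69206463, and Cdca5, plus strand, chr19:6084847-6085146), with each TTTGAA or CCAAT, on either strand, in capitals.
Bub1b: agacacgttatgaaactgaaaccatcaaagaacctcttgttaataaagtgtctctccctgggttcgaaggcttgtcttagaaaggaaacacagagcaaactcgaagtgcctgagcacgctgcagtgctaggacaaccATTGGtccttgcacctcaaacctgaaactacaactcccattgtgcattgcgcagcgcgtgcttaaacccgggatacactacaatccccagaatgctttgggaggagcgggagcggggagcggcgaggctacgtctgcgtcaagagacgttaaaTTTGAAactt
Spc25: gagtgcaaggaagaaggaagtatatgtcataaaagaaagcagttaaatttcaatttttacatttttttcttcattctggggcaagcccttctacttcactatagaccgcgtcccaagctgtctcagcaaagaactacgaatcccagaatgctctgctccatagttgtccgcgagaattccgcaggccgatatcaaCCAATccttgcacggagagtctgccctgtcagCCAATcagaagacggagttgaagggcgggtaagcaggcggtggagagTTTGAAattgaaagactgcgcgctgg
Cdca5: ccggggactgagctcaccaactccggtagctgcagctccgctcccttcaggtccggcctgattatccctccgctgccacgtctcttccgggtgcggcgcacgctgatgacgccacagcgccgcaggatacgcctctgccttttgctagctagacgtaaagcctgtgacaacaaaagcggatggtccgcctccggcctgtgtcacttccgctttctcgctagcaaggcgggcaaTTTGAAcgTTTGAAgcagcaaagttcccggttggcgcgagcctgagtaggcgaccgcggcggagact
Bub1b held 1 TTTGAA and 1 CCAAT, Spc25 held 1 and 2, and Cdca5 held 2 and 0. The window of Ncaph, at chr2:127133905-127134204 on the minus strand, held neither motif. Among 12585 measured genes with a promoter in the table, 15.3% held TTTGAA, 42.2% CCAAT and 6.0% both. Among the 45 of the 55 mitosis genes that had one, the shares were 71.1%, 71.1% and 60.0%, and among 37 DNA replication genes 16.2%, 62.2% and 10.8%. Of the 40 genes that rose in TFoxp3- cells alone 37 had a promoter, and 21.6%, 35.1% and 16.2% of those held the motifs. TTTGAA was in 23.1% of the 26 promoters of genes that fell in TFoxp3- cells alone and in 27.3% of the 44 of genes that fell in TFoxp3+ cells alone. The 2 motifs do not overlap in the windows shown, and a match describes letters only.

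Among the other genes that rose in TFoxp3- cells alone was Tnfrsf4, the costimulatory receptor OX40, with 12.47 and 12.52 ex vivo and 11.86 and 12.25 after activation in TFoxp3+ cells, and 8.56 and 8.63 ex vivo and 11.59 and 11.25 after activation in TFoxp3- cells. TFoxp3+ cells had high values in both states, and TFoxp3- cells came close to them after activation. The difference of -3.26 ± 0.33 (SE, adjusted p = 0.0201) thus went with a gap between the subsets of 3.90 ex vivo and of 0.64 after activation. Ppan, a factor of ribosome assembly, differed by -1.91 (adjusted p = 0.0386) and was the 1 call among 35 ribosome biogenesis and RNA polymerase I genes, where 0.898% of all genes had a called lower response in TFoxp3+ cells. In that list 13 rose in TFoxp3- and 8 in TFoxp3+ cells, against 11.8% and 14.5% of all genes.

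Receptors and kinases were among the 34 genes that fell in TFoxp3- cells alone. Tgfbr2, the type 2 receptor for TGF-beta, read 8.06 and 7.71 ex vivo and 8.54 and 8.90 after activation in TFoxp3+ cells, and 9.85 and 9.43 ex vivo and 6.86 and 6.10 after activation in TFoxp3- cells. Ex vivo TFoxp3- cells were highest and activated TFoxp3- cells lowest, while TFoxp3+ arrays stayed between 7.71 and 8.90. The difference was 3.99 ± 0.47 (SE, adjusted p = 0.0245). Tgfbr3, a coreceptor of the same pathway, differed by 1.95 (adjusted p = 0.0473), so that 2 of 22 measured TGF-beta pathway genes had a called higher response in TFoxp3+ cells (0.601% of all genes). Txk, a Tec family kinase of resting T cells, read 5.22 and 5.42 ex vivo and 4.59 and 6.03 after activation in TFoxp3+ cells, and 7.76 and 7.29 ex vivo and 3.72 and 3.43 after activation in TFoxp3- cells. The activated TFoxp3- arrays were far below the others, whereas the 2 activated TFoxp3+ arrays lay on either side of the ex vivo ones. Its difference was 3.94 ± 0.65 (SE, adjusted p = 0.0465). The adhesion protein gene Amigo2 fell by 3.26 in TFoxp3- cells to the level of TFoxp3+ cells (3.77 ± 0.49, adjusted p = 0.03), and Dennd5a, a regulator of Rab proteins, differed by 3.31 ± 0.46 (SE, adjusted p = 0.036).

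Of 32 measured genes of the interferon response 14 fell in TFoxp3+ and 15 in TFoxp3- cells (14% and 12.1% of all genes), and the median difference was 0.27. A call was made for 2, both higher in TFoxp3+ cells (0.601% of all genes). Irf9, a transcription factor of type I interferon signalling, read 9.55 and 9.34 ex vivo and 8.99 and 8.39 after activation in TFoxp3+ cells, and 10.33 and 10.27 ex vivo and 7.32 and 7.23 after activation in TFoxp3- cells. Activated TFoxp3- cells were the lowest group, and the difference was 2.27 ± 0.36 (SE, adjusted p = 0.045). Dhx58, a relative of the RNA sensor RIG-I, differed by 2.20 ± 0.34 (SE, adjusted p = 0.0413). Parp12, which is interferon-induced, fell in both subsets and differed by 2.98 ± 0.45 (SE, adjusted p = 0.0401).

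Among the 24 genes that rose in TFoxp3+ cells alone was Nt5e, the ectoenzyme CD73 that makes adenosine at the surface of regulatory T cells. Nt5e read 5.58 and 5.46 ex vivo and 9.54 and 8.58 after activation in TFoxp3+ cells, and 4.59 and 4.32 ex vivo and 4.05 and 4.23 after activation in TFoxp3- cells. The TFoxp3+ arrays were above the TFoxp3- arrays in both states, further after activation, and the difference was 3.86 ± 0.47 (SE, adjusted p = 0.0272). Il6st, the signalling chain gp130 of the IL-6 receptor family, read 6.02 and 6.25 ex vivo and 9.33 and 9.50 after activation in TFoxp3+ cells, and 6.70 and 6.53 ex vivo and 6.24 and 6.0 after activation in TFoxp3- cells. Both activated TFoxp3+ arrays stood above the remaining 6, and the difference was 3.77 ± 0.31 (SE, adjusted p = 0.0135). Cd4, the gene of the coreceptor used for the sort, read 7.20 and 6.98 ex vivo and 10.29 and 9.47 after activation in TFoxp3+ cells, and 8.44 and 8.10 ex vivo and 8.15 and 7.76 after activation in TFoxp3- cells. Ex vivo the TFoxp3+ arrays were lowest and after activation highest, and the difference was 3.11 ± 0.46 (SE, adjusted p = 0.0401).

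Larger differences were found for Lrrc8c, a subunit of volume-regulated anion channels (5.14 ± 0.44, adjusted p = 0.0147), for Emp1, an epithelial membrane protein (4.93 ± 0.66, adjusted p = 0.0327), for Msmo1, an enzyme of cholesterol synthesis (4.76 ± 0.65, adjusted p = 0.0341), and for the zinc finger gene Zfp605 (4.67 ± 0.61, adjusted p = 0.03). Msmo1 was the 1 call among 19 measured genes of cholesterol synthesis and uptake (0.601% of all genes had a called higher response in TFoxp3+ cells). In that list 5 rose and 5 fell in TFoxp3+ cells, against 14.5% and 14% of all genes. Lss, another enzyme of that pathway, had a difference of -1.50 that was not called (adjusted p = 0.29).

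A further 51 genes fell in TFoxp3+ cells alone. Bola3, a mitochondrial factor for iron-sulfur clusters, read 10.72 and 10.41 ex vivo and 5.77 and 4.26 after activation in TFoxp3+ cells, and 9.93 and 9.84 ex vivo and 9.14 and 10.23 after activation in TFoxp3- cells. All arrays but the 2 of activated TFoxp3+ cells were above 9, and the difference was -5.34 ± 0.78 (SE, adjusted p = 0.0392). Ptger2, a receptor for prostaglandin E2, read 7.72 and 7.46 ex vivo and 4.03 and 3.62 after activation in TFoxp3+ cells, and 6.22 and 6.17 ex vivo and 7.62 and 6.80 after activation in TFoxp3- cells. Activated TFoxp3+ cells were lowest here too, with a difference of -4.77 ± 0.45 (SE, adjusted p = 0.0171). Gsto1, a glutathione transferase, and Rilpl2 differed by -4.33 and -4.13 (adjusted p = 0.0219 and 0.0171). Batf, an AP-1 factor of effector T cells, read 9.80 and 9.89 ex vivo and 7.97 and 7.14 after activation in TFoxp3+ cells, and 9.44 and 9.39 ex vivo and 10.06 and 9.79 after activation in TFoxp3- cells. The other 3 groups lay between 9.39 and 10.06, and the difference was -2.80 ± 0.43 (SE, adjusted p = 0.0413). Pdcd1, the inhibitory receptor PD-1, differed by -2.04 ± 0.31 (SE, adjusted p = 0.0401), and the splicing factor Srsf6 by -2.27 ± 0.35 (SE, adjusted p = 0.0413). With Batf and Irf4, 2 of 29 measured immediate early and NR4A genes had a called lower response in TFoxp3+ cells (0.898% of all genes), and the median difference was -1.23. Egr2, of the same list, missed the threshold (-3.25, adjusted p = 0.0638).

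Both responses were called with the same sign for 40 genes, and the larger one was in TFoxp3+ cells for 21 and in TFoxp3- cells for 19. Il17ra, the receptor chain for IL-17A, read 5.31 and 5.82 ex vivo and 11.91 and 11.52 after activation in TFoxp3+ cells, and 9.35 and 9.27 ex vivo and 11.40 and 10.81 after activation in TFoxp3- cells. The TFoxp3+ minus TFoxp3- value was -3.75 ex vivo, which was called, and 0.61 after activation, which was not, and the difference was 4.36 ± 0.43 (SE, adjusted p = 0.0197). Irf4, a transcription factor that scales with T cell receptor signal strength, read 6.86 and 6.68 ex vivo and 7.92 and 8.39 after activation in TFoxp3+ cells, and 5.69 and 5.57 ex vivo and 9.39 and 9.84 after activation in TFoxp3- cells. It rose in both subsets, further in TFoxp3- cells, and the difference was -2.60 ± 0.37 (SE, adjusted p = 0.0388). Nfil3, a basic leucine zipper factor, and Crabp2, a carrier of retinoic acid, also rose further in TFoxp3- cells (-2.60 and -3.87, adjusted p = 0.0473 and 0.0245), and Slc35g1, a membrane transporter gene, rose further in TFoxp3+ cells (3.38 ± 0.34, adjusted p = 0.0201).

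Genes that fell further in TFoxp3+ cells included Sirt7, a deacylase of the nucleolus, which read 11.50 and 11.54 ex vivo and 5.03 and 5.99 after activation in TFoxp3+ cells, and 11.28 and 11.21 ex vivo and 9.22 and 9.27 after activation in TFoxp3- cells. The activated TFoxp3+ arrays were lowest and the ex vivo groups lay close together, and the difference was -4.01 ± 0.46 (SE, adjusted p = 0.0229). Hgh1 differed by -4.31 ± 0.29 (SE, adjusted p = 0.0112), Pcnp by -3.55 ± 0.55 (SE, adjusted p = 0.0413), and Ptpn6, the phosphatase SHP-1 that restrains T cell receptor signalling, by -2.71 ± 0.38 (SE, adjusted p = 0.0386). Itgb7, the integrin chain for homing to the gut, and Pdlim4 fell further in TFoxp3- cells (2.29 and 2.92, adjusted p = 0.0254 and 0.0277).

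Of 25 measured genes typical of regulatory T cells 1 had a called higher response in TFoxp3+ cells, Nt5e, and 1 a lower one, Tnfrsf4 (0.601% and 0.898% of all genes), and the median difference was -0.25. Foxp3 read 10.29 and 10.65 ex vivo and 10.48 and 9.76 after activation in TFoxp3+ cells, and 3.74 and 3.75 ex vivo and 5.28 and 5.86 after activation in TFoxp3- cells. TFoxp3+ cells were far above TFoxp3- cells in both states, and the labels fit this gene. It rose in TFoxp3- cells by 1.82 (adjusted p = 0.00958), and the difference of -2.17 ± 0.46 (SE, adjusted p = 0.0782) missed the threshold. Il2ra, the IL-2 receptor alpha chain, rose by 3.75 in TFoxp3+ and 3.99 in TFoxp3- cells, and the difference had a 95% interval from -1.38 to 0.88. Ctla4 differed by 1.52 (adjusted p = 0.305), Ikzf2 by 2.62 (0.136), Ikzf4 by 1.21 (0.215), Itgae by -1.21 (0.353) and Tnfrsf18 by -0.24 (0.822). Of the growth regulators, Myc rose in both subsets, by 4.12 and 5.21, with a difference of -1.09 (adjusted p = 0.392), and the cap-binding factor gene Eif4e had a difference of -0.97 (adjusted p = 0.387).

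Among the lists not yet described a difference was called for 2 of 27 costimulatory and inhibitory receptors (Pdcd1 and Tnfrsf4), 2 of 27 helper lineage transcription factors (Irf4 and Nfil3), 2 of 26 genes of T cell receptor signalling (Cd4 and Ptpn6), 1 of 32 genes of G1 cyclins, CDKs, RB and E2F (E2f8), 1 of 24 of the integrated stress response (Sesn2) and 1 of 36 splicing factors (Srsf6), against 1.50% of all genes. No difference was called among 17 cytosolic ribosomal protein genes, 28 translation initiation genes, 19 aminoacyl-tRNA synthetases, 39 oxidative phosphorylation genes, 16 genes of glucose uptake and glycolysis, 24 nutrient transporters, 22 genes of the BCL-2 family and cell death, or 19 genes of IL-2 and gamma chain receptors with STAT5 and SOCS. Their median differences lay between -0.50 for translation initiation and -0.01 for glycolysis. The median was 0.03 for all genes and -0.125 for genes above the median mean. At an unadjusted p under 0.05 with limma 47 of these 183 different genes passed, where the share of all genes at that threshold (2629 of 16475) corresponds to 29.2 of 183.

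**Figure D3:**
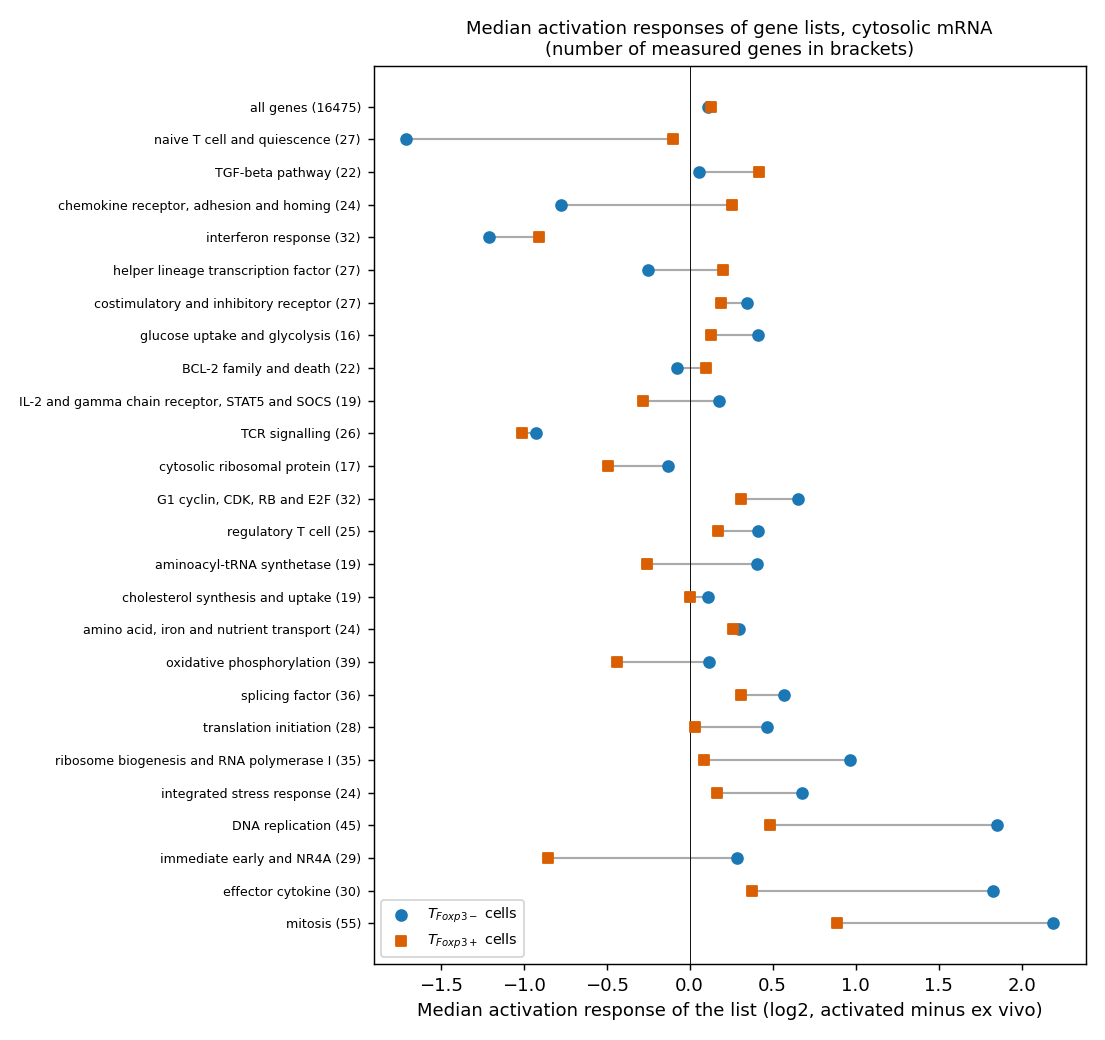
Median activation response (x axis, log2, activated minus ex vivo) of each gene list in TFoxp3- cells (circles) and TFoxp3+ cells (squares), with all 16475 genes at the top. Lists are ordered by the median of their genes' differences. The naive and quiescence list had -1.71 in TFoxp3- and -0.10 in TFoxp3+ cells, and mitosis, at the other end, 2.19 and 0.89.

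The same contrast on the 8 polysome-associated arrays, which the sorting did not use but which lie in the same array sets and may come from the same cells, called 159 genes (0.965% of those tested). Of the 247 genes 220 (89.1%) had the same sign there, against 61.3% of all genes, and 168 had that sign with a size over 1. Both fractions called 23 genes, 9.31% of the 247 and 14.5% of the 159, all with the same sign. The median polysome difference was 1.80 for the 99 genes with a higher response in TFoxp3+ cells and -1.52 for the 148 with a lower one. Cxcr4 had 6.27, Sgk1 7.08, Klf2 4.27, Cenpk -4.79 and Il4 -4.34 in polysome-associated mRNA. Gfi1 had -3.82 ± 1.80 (SE) there and was not called (adjusted p = 0.362). Sirt7 (-0.02 ± 0.40), Slc35g1 (0.02 ± 1.25) and Ptpn6 (-0.12 ± 0.38) had estimates near 0 there, that of Slc35g1 with a large standard error. Ppan had 1.04, against -1.91 in cytosolic mRNA. Of the 27 genes with the opposite sign, Ino80c (-1.35 ± 2.39), Prkacb (-1.71) and Rcc1l (2.22, against -2.82 in cytosolic mRNA) are named for the size of the gap. Rcc1l was named after its values were seen. A test of cytosolic minus polysome difference in 1 fit of all 16 arrays was also chosen after the data were seen. Among the 247 it passed for Rcc1l (-5.04 ± 0.61, adjusted p = 0.0319) and for Hgh1 (-3.52 ± 0.44, adjusted p = 0.0319). Over all genes it passed for 4, these 2 included. The 247 were chosen for their cytosolic difference, which is 1 term of this test, so they are not an independent set for it. For Ino80c and Prkacb this test did not pass (adjusted p = 0.449 and 0.128). Nor did it for Sirt7, Slc35g1, Ptpn6 and Ppan (adjusted p = 0.0913, 0.537, 0.212 and 0.16). Cd4 and Msmo1 had polysome differences of 0.40 and 0.67, and their test did not pass (adjusted p = 0.312 and 0.223). The fit of all 16 arrays took them as independent, although both fractions of a culture may come from the same cells.

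**Figure D4:**
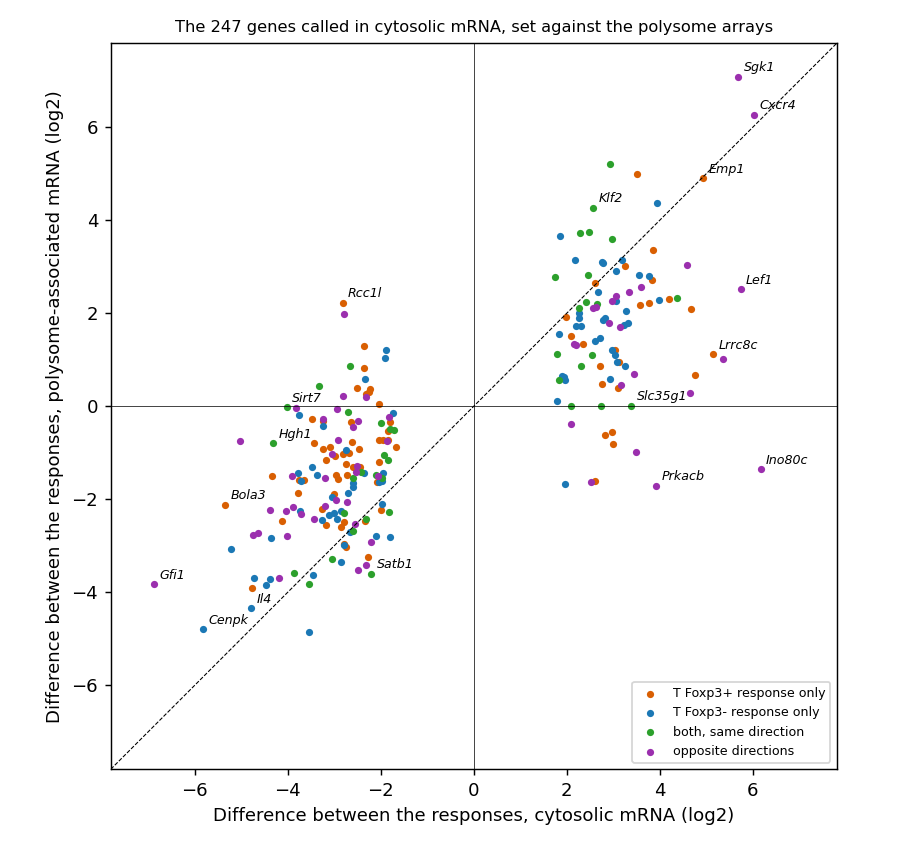
Difference between the activation responses (TFoxp3+ minus TFoxp3-, log2) in cytosolic mRNA on the x axis and in polysome-associated mRNA on the y axis for the 247 called genes, coloured by sorting, with the dashed line at equal values. Of these 220 lie in the upper right or lower left, where the sign is the same.

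Single-array responses, each activated array minus each ex vivo array of the subset, did not overlap between the subsets for 5339 genes (32.4%) and for all of the 247. The 247 were chosen by a test on these same arrays, so their lack of overlap is no separate evidence. All 6 measured T cell genes were above the array medians in every group, whereas group means under the array median were found for 6 or 7 of 8 B cell markers, 8 to 11 of 14 myeloid markers, 4 or 5 of 8 markers of CD8 T and NK cells, 8 to 10 of 10 stromal and endothelial markers and all 3 erythroid markers. Cd8b1, a chain of the CD8 coreceptor, read 5.74 to 6.62, above the median on all 8 arrays, and Cd8a, the other chain, 3.32 to 4.17, below it. Cd79b, a B cell receptor chain, and Nkg7, a cytotoxic granule protein, were above the medians on all 8 arrays, with differences of 0.14 and -1.39 that were not called. The summed myeloid markers (log2 of the sum) ranged from 8.69 to 8.79 ex vivo and 9.11 to 9.30 activated in TFoxp3+ cells, and from 8.70 to 9.72 and 8.02 to 8.21 in TFoxp3- cells. The difference was above 0 for 13 of 14 myeloid markers (median 0.68) and 8 of 8 B cell markers (median 0.56). It was above 0 for 4 of 8 CD8 T and NK cell, 6 of 10 stromal and endothelial and 3 of 3 erythroid markers (medians 0.01, 0.14 and 0.18). Over all genes it was above 0 for 8564 of 16475 (median 0.03). Among all these markers of other cells the one called was Cd68 (difference 4.20, adjusted p = 0.0459), while Lyz2, Csf1r, Fcer1g and Fcgr3 were not (0.96, 0.84, 1.60 and 1.44). Pecam1, which T cells can also express, had 4.29 (adjusted p = 0.0746). The part of these cells in the differences was not tested. On arrays, fewer cells of a kind and less mRNA per cell cannot be told apart.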

How the data were processed

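Per the labels, cytosolic RNA was amplified with the Ovation Pico WTA system (NuGEN) and hybridised to Affymetrix arrays. The values used here are the deposited log2 intensities, which the authors made with RMA (affy package) after assigning probes to Entrez genes anew. They were taken as they are, with no detection values, so the number of arrays limits precision. The table held 16539 features, and 64 control probe sets among them were not used. Symbols came from the platform annotation, and 695 genes without one are not named.

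Groups were taken from the labels. The main test was limma 3.58.1 in R 4.3.3 on the 8 cytosolic arrays with 1 mean per group, 4 residual degrees of freedom and Benjamini-Hochberg adjustment over 16475 genes, at an adjusted p under 0.05. Standard errors and p-values are limma's, and p-values are two-sided. Alternatives were all 16 arrays in 1 fit, array weights, genes above the median mean, centring, cyclic loess, a threshold of 0.15, and leaving out each array, after which the remaining array was given the spread of the other groups. Tables and figures used Python 3.11.15, pandas 2.3.3 and matplotlib 3.10.9.

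The genes named were, per sorting and direction, the 4 largest differences among called genes with a group mean above 7 and single-array responses that do not overlap, without predicted genes and olfactory or vomeronasal receptors, for each list the 4 members at most that had the lowest adjusted p, and 16 fixed genes. Members, lists and rule were chosen with earlier results of these data known. Klf2, Dapl1, Prf1, Rcc1l and the marker genes given with values were named after these were seen.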

Additional observations from a re-analysis of the deposited data

Results flagged for a closer look

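The response to activation differed between the subsets, by limma's test of the difference itself, for 247 genes at an adjusted p under 0.05. The named genes among them, apart from Dapl1, Prf1 and Cd68, are given here with the difference between the responses (TFoxp3+ minus TFoxp3-, log2).

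Opposite directions were found for Ino80c (6.17), Cxcr4 (6.02), Lef1 (5.74), Sgk1 (5.68), Prkacb (3.92), Sesn2 (-1.87), Ncaph (-2.73), Il12rb1 (-4.64), Phlda1 (-4.74), Atg9b (-5.03) and Gfi1 (-6.86). A response was called in TFoxp3- cells alone for Tgfbr2 (3.99), Txk (3.94), Amigo2 (3.77), Dennd5a (3.31), Irf9 (2.27), Dhx58 (2.20), Tgfbr3 (1.95), Ppan (-1.91), E2f8 (-2.10), Spc25 (-2.66), Cdca5 (-2.85), Xcl1 (-3.12), Tnfrsf4 (-3.26), Bub1b (-3.38), Csf2 (-4.37), Rfc4 (-4.72), Il4 (-4.78), Sgo1 (-5.21) and Cenpk (-5.82). A response was called in TFoxp3+ cells alone for Lrrc8c (5.14), Emp1 (4.93), Msmo1 (4.76), Zfp605 (4.67), Nt5e (3.86), Il6st (3.77), Cd4 (3.11), Pdcd1 (-2.04), Srsf6 (-2.27), Batf (-2.80), Rcc1l (-2.82), Rilpl2 (-4.13), Gsto1 (-4.33), Ptger2 (-4.77) and Bola3 (-5.34). Both responses had the same sign for Il17ra (4.36), Slc35g1 (3.38), Parp12 (2.98), Pdlim4 (2.92), Klf2 (2.57), Itgb7 (2.29), Satb1 (-2.21), Ccl4 (-2.31), Irf4 (-2.60), Nfil3 (-2.60), Ptpn6 (-2.71), Pcnp (-3.55), Crabp2 (-3.87), Sirt7 (-4.01) and Hgh1 (-4.31). Since each activated group lies in an array set of its own, subset and array set cannot be told apart in any of these.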

How the results depend on the processing

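No paired analysis was possible because the arrays carry running numbers, so that the groups share no replicate number. With centring or cyclic loess none of the 247 genes changed the sign of the difference. Besides the main 247, the count was 341 with all 16 arrays in the fit (169 shared), 189 with array weights (156), 190 above the median mean (180 of the 214 still tested), 232 with centring (224) and 183 with cyclic loess (162). A response in TFoxp3- cells alone was called for 116 genes with 16 arrays and 49 above the median mean, and in TFoxp3+ cells alone for 41 with cyclic loess. Both responses with the same sign were found for 20 genes with array weights. At an adjusted p under 0.15 there were 1194 differences, 7645 TFoxp3+ and 6576 TFoxp3- responses, and 332, 311, 345 and 206 genes in TFoxp3+ cells alone, in TFoxp3- cells alone, in both with the same sign and in opposite directions.

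Leaving out 1 array gave 0 to 1177 differences, 1589 to 5355 TFoxp3+ and 1251 to 5616 TFoxp3- responses, 0 to 416 genes in TFoxp3+ cells alone, 0 to 333 in TFoxp3- cells alone, 0 to 241 in both with the same sign, 0 to 188 in opposite directions and 0 with neither response called. There were 0 differences whichever of the 4 ex vivo arrays was left out, and the cause was not tested. None of the named genes passed the threshold under all alternatives, since each lost it without an ex vivo array. Among genes not called, Il2ra (-0.25) turned to 0.018 and Tnfrsf18 (-0.24) to 0.029 with cyclic loess, and with 1 array left out they ranged from -0.553 to 0.054 and from -0.534 to 0.046.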
